A study of Mus musculus with 6 samples.

Results

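The culture interval from day 3 to day 7 was followed here in micromasses of Ezh2-deficient mouse chondrocytes. The comparison rests on 2 of the 6 RNA-seq libraries of the series, the Ezh2-deficient library at day 7 against the Ezh2-deficient library at day 3, and takes in all 23358 gene entries of the deposited count table. The cells were immature chondrocytes from the knee and hip cartilage of mice of strain C57BL/6 - mix at post-natal day 5, genotype Ezh2-deficient, with the sample names marking a conditional knockout (cKO). They were kept in DMEM with 2% serum and cultured as dense cell spots, with insulin, transferrin and selenium, 0.05 mg/mL ascorbic acid and 10 mM β-glycerol phosphate, which all 6 micromass groups received. The other groups used below were wildtype cells of the same strain label and age at days 3 and 7, and Ezh2-deficient cells at day 14. The Cre driver, the deleted part of Ezh2, the number of mice behind a library and any litter are not stated by the sources at hand. Each genotype and day had 1 library, so no difference below has a replicate check and no test was made.

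Ezh2 is the methyltransferase of Polycomb repressive complex 2 (PRC2), which marks histone H3 at lysine 27 and keeps developmental genes silent. Chondrocytes make a matrix of type II collagen and aggrecan, and in the growth plate they enlarge, switch on type X collagen and mineralisation genes and give way to bone. Isolated chondrocytes are also known to lose cartilage genes and to take up type I collagen when they are kept in culture.

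Levels are given as CPM, the counts of a gene per 1000000 counts of its library, after the deposited library totals were adjusted with TMM factors (trimmed means of log ratios between libraries). Each ratio is followed, where it matters, by its 95% counting interval, an exact binomial interval that covers counting error only. A gene is said below to have risen or fallen, or to be called, when it had at least 1 CPM in the higher library, differed by 2-fold or more on a log2 scale with a prior count of 2, and had an interval that excluded 1. A gene below 1 CPM at day 3 thus enters a count only through its day 7 level, which favours rises in lists with low genes. The libraries held 79323302 counts at day 3 and 71953802 at day 7. The 10 genes with most counts took 16.6% of them at day 3 and 10.3% at day 7. Rn45s, the ribosomal RNA precursor, took 2.98% and 2.51%. Xist and 4 Y-linked genes were all present, at 844 and 678 CPM for Xist and 123 and 132 CPM for the Y-linked sum, so both libraries held RNA of both sexes. In wildtype Xist had 1061 and 1133 CPM, and the Y-linked sum was 90.5 and 62.6 CPM. The genotypes thus differed in these levels too, and any part of this in the step differences below was not tested.

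Ezh2 itself had 14.7 CPM at day 3 and 23 CPM at day 7, a ratio of 1.56 (interval 1.41 to 1.74). In wildtype it had 24.6 and 40.3 CPM, a ratio of 1.64. The libraries labelled Ezh2-deficient were thus lower than wildtype on both days, with reads left. Since the deleted part is not given, whether these reads lie outside it was not tested. Its partners did not pass the 2-fold rule: Suz12 had 77.5 and 70.5 CPM, Eed 32.6 and 30.6 CPM, and Ezh1, the related methyltransferase, 21.9 and 24.5 CPM. Nnt, whose level separates C57BL/6 substrains, stood at 24 and 22.7 CPM in the Ezh2-deficient libraries and at 57.5 and 55.0 CPM in wildtype. The substrain behind each genotype is not stated, and any part of it in the step differences below was not tested.

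The chondrocyte label held against its markers on both days. Per length of transcript, Col2a1 ranked first of all genes in both libraries, with 11567 RPKM at day 3 and 5746 RPKM at day 7. Sox9, the master transcription factor of cartilage, had 320 and 208 CPM, and Hapln1, the link protein of aggrecan, 4904 and 2460 CPM. Col1a1 and Col1a2, the chains of type I collagen, had 184 and 259 RPKM at day 3 and both stood among the 10 highest genes per length at day 7, at 1436 and 1438 RPKM. Sparc, a matrix protein of bone and cartilage, moved from the seventh to the second place with 2157 and 2929 RPKM.

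Of 13580 genes with at least 1 CPM in 1 of the libraries, 1829 rose (13.5%) and 764 fell (5.63%). The median log2 ratio over all of them was -0.04. At 4-fold or more, 776 were higher and 164 lower, and at 16-fold or more 73 were higher and 11 lower. Genes with an interval that excluded 1 at any size numbered 4903 higher (36.1%) and 5596 lower (41.2%). The members just inside the 2-fold limit had log2 ratios of 1.0002 and -1.0004, and those just outside it 0.9996 and -0.9998. Higher genes made up 70.5% of calls with TMM scaling. With scaling by total counts the median ratio of all genes shifted by 0.23 on the log2 scale to 0.18, the balance of small steps moves with it, and the calls became 2383 higher and 512 lower, of which 82.3% were higher.

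**Figure D1:**
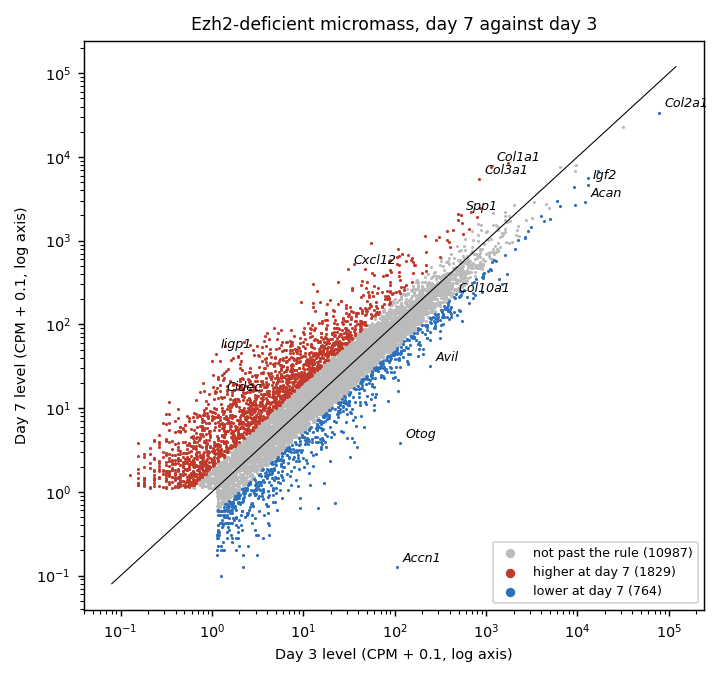
Level of each of 13580 genes at day 3 (horizontal axis) and at day 7 (vertical axis) in Ezh2-deficient micromass, in CPM plus 0.1 on log axes, 1 point per gene and 1 library per day. The 1829 red points above the line of equality are genes that rose and the 764 blue points below it genes that fell; Col2a1 and Acan lie below the line at the high end, Col1a1 and Col3a1 above it, and Accn1 far below it.

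Genes of the cartilage matrix fell more often than they rose. Of 30 measured genes of this list, 14 fell and 3 rose, with a median log2 ratio of -0.89 against -0.04 over all genes. Their summed level went from 155770 to 64997 CPM. Acan, the aggregating proteoglycan of cartilage (mm10, chr7:79053483-79115099), had 12072 CPM at day 3 and 2881 CPM at day 7, a 4.19-fold fall (interval 4.16 to 4.22). Col2a1 (chr15:97975602-98004724) went from 78231 to 33586 CPM, 2.33-fold lower, which is a log2 ratio of -1.22 and of -0.996 with total counts, where it just missed the 2-fold limit. Col11a2, a chain of the type XI collagen that seeds cartilage fibrils, fell from 9500 to 2684 CPM and Col9a1, of the fibril-coating type IX collagen, from 6499 to 2598 CPM. All of these large fibril genes moved the same way.

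Papss2, the enzyme behind the sulphate donor of proteoglycans, fell from 1676 to 398 CPM and Xylt1, which starts their sugar chains, from 482 to 131 CPM. Matn1, a matrix protein that bridges cartilage fibrils, fell 2.75-fold from 5047 to 1836 CPM. Matn3 and Comp, other bridging proteins of cartilage, did not pass, with 522 and 364 CPM for Matn3 and 3163 and 1881 CPM for Comp. Of 15 measured transcription factors of cartilage, 1 fell and 2 rose (median -0.36), near the 5.63% and 13.5% of all genes that did. The 1 that fell was Sox6, a partner of Sox9, from 225 to 98.8 CPM. It missed the limit at -0.96 with total counts. Those that rose were low: Pax9 had 1.51 and 4.94 CPM and Nfatc2 2.21 and 6.36 CPM. Col11a1 had the second-largest loss in CPM after Col2a1, from 16990 to 6704 CPM.

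Genes of fibrous connective tissue moved the other way. Of 29 measured, 20 rose and none fell, with a median of 1.83. Col1a1 (chr11:94936270-94951856) rose 6.76-fold (interval 6.70 to 6.83), from 1136 to 7685 CPM, and Col3a1, the collagen of loose connective tissue, 6.44-fold from 838 to 5395 CPM. Thy1, a surface marker of fibroblasts, rose 15.3-fold from 5.58 to 85.5 CPM, and Pdgfra, the receptor of mesenchymal progenitors, from 42.3 to 295 CPM. Postn, periostin, rose from 50.1 to 323 CPM. Bgn and Vim, a small proteoglycan and the intermediate filament of mesenchyme, were among the 10 largest gains in CPM and reached 2459 and 1919 CPM. Tendon genes rose in 5 of 9 cases, among them Tnmd, the tenomodulin of tendon and ligament, from 9.82 to 62.3 CPM. Smooth muscle genes rose in 6 of 10, such as Myl9 from 17.6 to 89.9 CPM.

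Many matrix-degrading enzymes rose over the same days. Among metalloproteinases and their inhibitors 10 of 17 rose and none fell (median 1.43). In the list of ADAMTS proteases, which also holds the ADAMTS-like Adamtsl1, 11 of 18 rose and none fell (median 1.12). Mmp13, the collagenase of hypertrophic cartilage, rose 3.45-fold from 377 to 1302 CPM and Mmp2, a gelatinase, from 110 to 420 CPM. The aggrecan-cleaving enzymes Adamts4 and Adamts5 rose from 3.37 to 26.4 CPM and from 15.5 to 78.0 CPM. At day 7 the level of Mmp13 thus stood above that of any other day 3 or day 7 library of the series, with wildtype at 286 and 658 CPM.

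The hypertrophic programme split. Of 20 measured genes 7 rose and 5 fell, with a median of 0.48. Col10a1, the collagen specific to hypertrophic cells, had 441 CPM at day 3 and 211 CPM at day 7, 2.09-fold lower (interval 2.03 to 2.15), and -0.84 on the log2 scale with total counts, short of the limit. It lies within Nt5dc1, whose own counts gave 18.0 and 14.9 CPM. Ihh, the hedgehog signal of prehypertrophic cells, fell from 9.47 to 3.10 CPM, and Fgfr3, a brake on growth plate proliferation, from 1372 to 351 CPM. Members tied to mineral and to the late phase rose: Ibsp, bone sialoprotein, from 56.2 to 243 CPM, Alpl, the alkaline phosphatase of mineralising cells, from 89.7 to 243 CPM, and Spp1, osteopontin, from 528 to 2004 CPM. Col10a1 therefore moved in the opposite direction to Ibsp, Alpl and Spp1 in this interval.

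Bone genes as a wider list rose in 14 of 36 cases and fell in 2, with a median of 0.66. Dmp1, a mineral-binding protein of osteocytes, had the largest ratio, 14.2-fold (interval 10.4 to 19.8), from 1.13 to 16 CPM. The master regulators did not pass: Runx2 had 77.5 and 98.5 CPM, and Sp7, which acts after it, 27.5 and 42.1 CPM. Bglap, osteocalcin, which has near-identical copies between which reads could be split, had 13.3 and 13.0 CPM. Dlx6, a homeobox factor of bone, rose from 0.674 to 3.36 CPM.

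Genes induced by interferon formed the list with the largest upward step. All 34 measured members rose, with a median log2 ratio of 3.66 and a range from 1.02 to 5.14. Interferons are antiviral cytokines that act through a small set of transcription factors, and their target genes share a short promoter element. Isg15, a ubiquitin-like modifier, rose 19.6-fold (interval 16.8 to 23), from 4.67 to 91.5 CPM. Oasl2, of the family of RNA sensors, went from 2.16 to 61.8 CPM, Zbp1, a sensor of nucleic acids, from 0.216 to 8.52 CPM, and Irf7, which amplifies the response, from 2.51 to 56.0 CPM. Of 16 interferon-inducible GTPases in the count table, 10 reached 1 CPM in the higher library, and all 10 rose (median 3.53). A member below 1 CPM at day 3 enters such a count only through its day 7 level, which favours rises. Iigp1 among them had 0.998 and 44.7 CPM. Ifi47, which is in neither list and overlaps Olfr56, had 0.243 and 11.9 CPM, the largest ratio of the named genes that rose at 49.0-fold (interval 25.6 to 108).

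The element bound by the interferon-activated factors was looked up in the promoters, taken as 250 bases before to 50 after the transcription start in RefSeq's GRCm38.p6 annotation, the same build as mm10. The motif searched was GAAA, any 2 bases, and GAAA again, on both strands, with overlapping matches counted. Of the 34 genes, 23 had a promoter entry, and 14 of these (60.9%) held the motif, against 3.99% of all 27025 genes with an entry (3.44% of all 32851 promoters of that length). Those of 4 genes are shown, which cover a modifier, an RNA-binding effector, an RNA sensor and an antiviral enzyme, with the matches in capitals, each on the strand of its gene and 5′ to 3′. The TTTC form is the same motif read on the opposite strand.
Isg15, minus strand, chr4:156200845-156200926: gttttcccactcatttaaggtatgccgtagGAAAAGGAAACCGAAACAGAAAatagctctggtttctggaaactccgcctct
Ifit1, plus strand, chr19:34640755-34640843: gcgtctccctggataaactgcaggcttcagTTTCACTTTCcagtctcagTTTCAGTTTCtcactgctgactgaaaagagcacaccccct
Oas1a, minus strand, chr5:120907526-120907575: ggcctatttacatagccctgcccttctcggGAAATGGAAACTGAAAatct
Rsad2, minus strand, chr12:26456533-26456602: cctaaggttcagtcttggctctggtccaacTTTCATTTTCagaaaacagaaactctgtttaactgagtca

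In Isg15 there were 3 overlapping matches, the first of which begins 78 bases before the start, and in Oas1a 2 overlapping matches from 20 bases before it. Ifit1 had 2 separate matches and Rsad2 1, at 120 bases. Their levels moved alike: Ifit1, which binds foreign RNA, rose from 3.88 to 79.7 CPM, Oas1a, an RNA sensor, from 0.728 to 9.42 CPM, and Rsad2, an antiviral enzyme, from 1.19 to 24.9 CPM. A match describes these letters only and says nothing of binding in these cells.

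Antigen presentation, chemokines and complement rose with them. Class I presentation genes rose in 17 of 19 cases (median 1.93), from B2m, the shared light chain, at 155 and 623 CPM, to the immunoproteasome subunits Psmb8 at 1.24 and 23 CPM and Psmb9 at 0.647 and 7.89 CPM. Nlrc5, the activator of class I genes, went from 1.91 to 17.8 CPM. Reads of the near-identical H2 genes could be split between them. Of 28 chemokines in the count table, 17 reached 1 CPM in the higher library, and 15 of these rose (median 2.83). Cxcl12, which attracts blood cell precursors, rose 14.9-fold from 30.4 to 454 CPM, and Cxcl10, an interferon-induced attractant of T cells, 28.1-fold (interval 19 to 43.3) from 0.701 to 19.7 CPM. Cxcl10 lies within Art3, which had 1.4 and 2.01 CPM.

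Complement genes rose in 14 of 19 and fell in 1 (median 2.37). Serping1, the inhibitor of the first complement component, rose 42.8-fold (interval 32.2 to 58.3), from 1.29 to 55.4 CPM. Inflammatory mediators rose in 11 of 21 cases and fell in 1 (median 1.05). Tnf reached 5.09 CPM from 0.351 CPM, Vcam1, an adhesion molecule for leukocytes, 71.9 CPM from 7.85 CPM, and Il1rn, the natural antagonist of interleukin 1, 104 CPM from 16.1 CPM.

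Markers of macrophages moved with these lists. Of 21 measured, 20 rose and none fell, with a median of 3.46, and their summed level went from 179 to 2057 CPM, and in wildtype from 229 to 2136 CPM. Csf1r, the receptor that macrophages depend on, had 13.3 and 146 CPM, Cd68 11.6 and 70.6 CPM, C1qa 1.97 and 45.9 CPM and Lyz2, a lysozyme with the near copy Lyz1, 55.3 and 938 CPM. No marker of the list was at 0 at either day. In bulk RNA more cells of a type and more RNA per cell cannot be told apart, and the part of macrophages in the interferon, chemokine and complement steps was not tested. Lymphocyte and mast cell markers summed to 1.13 and 2.65 CPM and erythroid markers to 1.56 and 1.45 CPM, and none of either list reached 1 CPM. Lysosomal genes, which macrophages express strongly, rose in 8 of 26 cases, led by Ctss from 25.9 to 191 CPM.

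Fat cell markers rose in 11 of 12 cases (median 1.9), from a summed level of 280 to 1108 CPM. Fabp4, the fatty acid carrier of fat cells, had 45.3 and 225 CPM, Adipoq, adiponectin, 11.6 and 41.3 CPM, and Cfd, adipsin, 1.91 and 33.1 CPM. Cox8b, a mitochondrial subunit of brown fat and muscle, had 0.189 and 6.59 CPM. Vessel markers were low, with a sum of 17.8 and 35.6 CPM and Cldn5 at 0 at day 7, and 3 of 6 rose. Of osteoclast markers 4 of 7 rose, Acp5 from 2.94 to 12.8 CPM among them, while the summed level of the list changed little, from 224 to 278 CPM. In skeletal muscle 2 of 6 fell, such as Acta1 with 4.34 and 1.12 CPM, and 1 rose, Des, which is also in the smooth muscle list. Of the skeletal muscle list 3 members had no count at day 3, and 2, the master regulators Myf5 and Myod1, had none at day 7. Among neural and glial markers S100b, which cartilage also expresses, fell from 341 to 122 CPM.

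**Figure D2:**
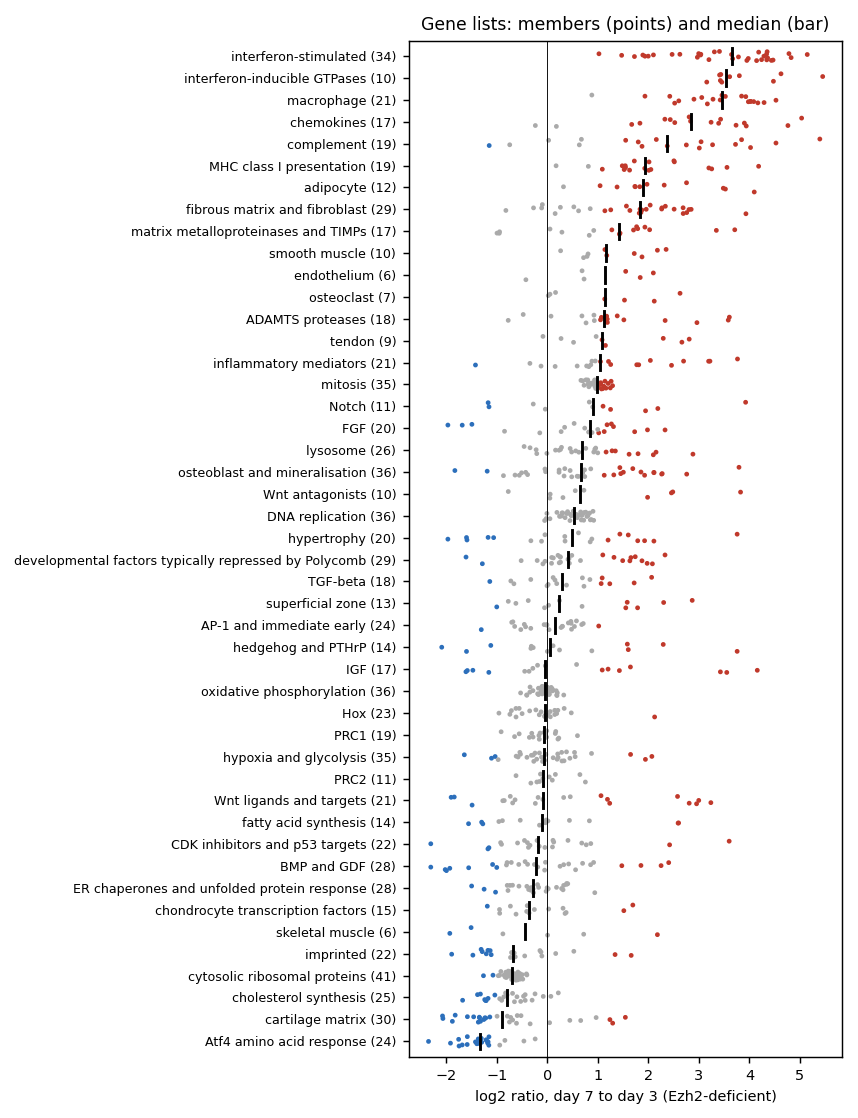
Log2 ratio of day 7 to day 3 in Ezh2-deficient micromass for the measured members of each gene list with 6 or more of them, 1 point per gene, with the median as a black bar and the number measured in brackets. Red points rose and blue points fell by the 2-fold rule; every interferon-stimulated gene lies to the right of 1, and no Atf4 amino acid response gene lies to the right of 0.

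Targets of the transcription factor Atf4 were the list that fell most. Atf4 is translated when amino acids run short or the endoplasmic reticulum is strained, and it raises genes for amino acid uptake and synthesis. Of 24 measured genes 20 fell and none rose, with a median of -1.33 and a range from -2.35 to -0.24. Cth, which makes cysteine, went from 109 to 21.4 CPM, 5.11-fold lower (interval 4.74 to 5.51), and Trib3, a feedback inhibitor of Atf4, from 311 to 82.3 CPM. The amino acid carriers Slc7a5 and Slc7a1 fell from 504 to 150 CPM and from 416 to 123 CPM. Atf4 itself had 741 and 321 CPM, and Ddit3, a stress-induced partner, which overlaps Mars, 185 and 61.7 CPM. With total counts Atf4 stood at -0.98 and Chac1 at -0.95, both short of the limit.

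The Atf4 binding element was searched as TGATGNAA on both strands in the same promoters. Of 21 genes of the list with an entry 8 held it (38.1%), against 4.51% of all genes with an entry (3.97% of all promoters). Shown are a synthetic enzyme, a transcription factor, a glutathione-degrading enzyme and a secreted hormone, on the strand of the gene, with the match in capitals; TTNCATCA is the reverse of the motif.
Asns, minus strand, chr6:7693210-7693262: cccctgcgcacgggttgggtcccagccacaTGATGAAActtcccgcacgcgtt
Atf3, minus strand, chr1:191183406-191183473: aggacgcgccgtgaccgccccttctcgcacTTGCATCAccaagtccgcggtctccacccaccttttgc
Chac1, plus strand, chr2:119351019-119351086: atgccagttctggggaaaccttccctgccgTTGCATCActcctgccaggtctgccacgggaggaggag
Fgf21, minus strand, chr7:45615592-45615659: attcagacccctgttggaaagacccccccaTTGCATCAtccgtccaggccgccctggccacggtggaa

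The matches begin 23 bases before the start in Asns, 110 in Atf3, 193 in Chac1 and 139 in Fgf21. Asns, asparagine synthetase, went from 403 to 153 CPM, and Atf3, a stress-induced factor, from 56.2 to 22.7 CPM. Chac1, which breaks down glutathione, went from 103 to 45.8 CPM, and Fgf21, a hormone of the starvation response, from 14.1 to 4.38 CPM. All of these were lower at day 7. The chaperones and other genes of the unfolded protein response moved less, with 3 of 28 lower and none higher (median -0.28). Ern1, a sensor of the endoplasmic reticulum, fell from 108 to 38.4 CPM and Herpud1 from 294 to 124 CPM.

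All 41 measured ribosomal protein genes had a ratio below 1, between -1.26 and -0.41 on the log2 scale with a median of -0.70, and 2 passed the 2-fold rule. These were Rplp0, from 2686 to 1118 CPM, and Rplp1, from 1227 to 582 CPM, which with total counts stood at -0.85 and did not pass. Reads of ribosomal protein genes can be shared with processed copies. Eef1a1, the factor that brings transfer RNA to the ribosome, had 9177 and 4417 CPM, among the 10 largest losses in CPM, and -0.83 with total counts.

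Of 25 cholesterol genes 8 fell and none rose (median -0.80). The largest ratio was that of Insig1, the sterol sensor that holds the pathway in check, at 446 and 139 CPM, followed by Sc4mol, an enzyme of the pathway, at 287 and 110 CPM. The sterol element TCACNCCAC was found in 1 of 17 promoters of the list, that of Hmgcs1, and in 1.44% of all genes with an entry (1.24% of all promoters). Of 14 fatty acid genes 2 rose and 3 fell, where 13.5% and 5.63% of all genes did. Scd2, a desaturase, fell from 2677 to 1087 CPM, and Acacb and Thrsp, both active in fat tissue, rose from 3.4 to 20.6 CPM and from 7.58 to 46.0 CPM. None of 36 oxidative phosphorylation genes passed in either direction. Of 35 hypoxia and glycolysis genes 3 rose and 3 fell, against the same 13.5% and 5.63% of all genes.

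Of 35 mitosis genes 14 rose and none fell. All 35 had higher levels at day 7, with log2 ratios from 0.66 to 1.29 and a median of 0.98. Mki67, the proliferation antigen, went from 117 to 278 CPM, 2.37-fold (interval 2.29 to 2.46), and Top2a, a topoisomerase of dividing cells, from 116 to 240 CPM. Cdk1, the kinase that starts mitosis, did not pass, at 30.7 and 53.4 CPM. None of 36 replication genes passed in either direction (median 0.53), with Mcm2, of the replicative helicase, at 50.7 and 50.4 CPM. The inhibitors of the cell cycle moved apart. Cdkn2a, a known Polycomb target at the Ink4a locus, rose 12.4-fold (interval 8.94 to 17.6) from 1.05 to 13.0 CPM, and its neighbour Cdkn2b from 5.58 to 29.98 CPM, whereas Cdkn1c, an imprinted inhibitor of the growth plate, fell from 786 to 348 CPM, with -0.95 under total counts. In wildtype Cdkn2a rose as well, 11.1-fold from 0.665 to 7.37 CPM, a step difference of 0.19 (interval -0.59 to 0.96). Cdkn2b rose there from 6.38 to 17.1 CPM, a smaller step than without Ezh2, with a difference of 1.00 (interval 0.69 to 1.31).

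Among developmental factors that Polycomb typically keeps silent, 10 of 29 measured rose and 2 fell (median 0.41), where 13.5% and 5.63% of all genes did. Of the 65 in the count table, 14 had no count at day 3 and 9 had none at day 7. In wildtype 13 of 31 measured rose and none fell (median 0.71). Ebf2, which is also a factor of fat and bone precursors, had the largest ratio and rose from 2.24 to 11.3 CPM. Others reached only low levels, such as Irx1 with 0.378 and 1.68 CPM, Gata6 with 0.324 and 1.35 CPM and Alx4 with 1.29 and 4.81 CPM. Of 23 measured Hox genes 1 rose, Hoxc13 from 0.243 to 1.15 CPM, and none fell. Irx1, Gata6 and Hoxc13 count as measured only through their day 7 level, which favours rises in these lists. None of 11 PRC2 genes and none of 19 PRC1 genes passed in either direction. The medians of the Hox, PRC1 and PRC2 lists lay within 0.09 of 0 and changed sign with total counts.

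Imprinted genes, many of which drive growth before birth and are switched off later, fell in 8 of 22 cases and rose in 2 (median -0.68). Igf2, the fetal growth factor, which overlaps Igf2as, had 12964 and 4667 CPM, and H19, the untranslated RNA beside it and host of Mir675, 12970 and 5612 CPM, with -0.98 under total counts. Peg10 fell 3.72-fold, from 894 to 241 CPM. Mest, host of Mir335, went against them, from 691 to 2182 CPM.

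In the insulin-like growth factor system the postnatal ligand Igf1 rose 17.8-fold (interval 16.3 to 19.5), from 14.2 to 253 CPM, while Igf2 fell as given above. The binding proteins Igfbp2 and Igfbp3, which hold the ligands, rose from 7.28 to 85.6 CPM and from 5.69 to 61.4 CPM. Over the list 7 of 17 rose and 4 fell. In hedgehog signalling the ligand Ihh fell, as did Pthlh, the parathyroid hormone-related ligand that answers it, from 5.18 to 1.2 CPM. Targets of the pathway went the other way: Gli1 rose from 17.1 to 52 CPM and Hhip, a feedback antagonist, 13.5-fold (interval 12.6 to 14.5) from 23.9 to 324 CPM. Ptch1, the receptor and also a target, had 124 and 229 CPM and did not pass.

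Of Wnt ligands, receptors and targets 8 of 21 rose and 3 fell. Rspo2, which strengthens Wnt signals, rose from 4.34 to 41.1 CPM and Lgr5, a receptor for it, from 0.270 to 2.26 CPM. Among secreted Wnt antagonists 4 of 10 rose and none fell, led by Sfrp2 from 12.7 to 181 CPM; Sfrp5 had 40.6 and 23.7 CPM. In the BMP list 4 of 28 rose and 7 fell, where 13.5% and 5.63% of all genes did. Gdf15, a stress-induced hormone that also belongs to the p53 targets, fell from 35.1 to 7.07 CPM, Id4, a target of BMP signals, fell from 47.3 to 11.6 CPM, and Fstl1 and Bmp3 rose from 215 to 1134 CPM and from 8.17 to 39.0 CPM. The FGF list had 8 of 20 higher and 3 lower, with the ligands Fgf7 and Fgf10 at 88.3 CPM after 17.6 and at 9.98 CPM after 2.99. The medians of the Wnt, BMP and insulin-like growth factor lists, between -0.22 and -0.04, changed sign with total counts.

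Notch genes rose in 5 of 11 cases and fell in 2 (median 0.90), with the ligand Jag1 at 5.61 and 25.6 CPM and Lfng, which tunes the receptor, at 2.86 and 11.1 CPM. In the TGF-beta list 5 of 18 rose and 1 fell (median 0.28): Ltbp2, of the proteins that store the ligand in matrix, rose from 21.7 to 90.9 CPM, and Tgfbi, a secreted target, fell from 287 to 130 CPM, with -0.91 under total counts. Of 13 genes of the superficial zone of joint cartilage 5 rose and 1 fell (median 0.24). Abi3bp, a matrix protein, rose from 56.6 to 413 CPM, while Prg4, the lubricin that defines that zone and whose entry overlaps Tpr, did not pass at 24.7 and 16 CPM. Of 24 immediate early genes 1 rose and 1 fell (median 0.15), and 2 of 22 cell cycle inhibitors and p53 targets rose while 3 fell (median -0.18, which changed sign with total counts). Over all genes 13.5% rose and 5.63% fell. Of 3 epithelial genes measured 2 rose, Trp63 from 2.97 to 13.2 CPM and Cdh1 from 0.162 to 1.37 CPM.

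The largest downward ratios belonged to genes of no list. Accn1, a gene for an acid-sensing ion channel under an older symbol (chr11:80880165-81968396) that overlaps uncharacterised entries, had 7948 counts at day 3 and 2 counts, or 1 fragment, at day 7, a ratio of 4211 (interval 755 to 166380). In both wildtype libraries it had 0 counts, which allows up to 0.0907 and 0.0853 CPM, so that its level of 107 CPM stood in the Ezh2-deficient day 3 library alone of the 4 libraries of days 3 and 7. Ephx4, an epoxide hydrolase, fell 35.1-fold from 22.4 to 0.636 CPM, Otog, otogelin of the inner ear matrix, 30.6-fold from 114 to 3.74 CPM, and Slit1, a guidance cue, 27-fold from 14.5 to 0.534 CPM. Each of these last genes was high in both genotypes at day 3 and low in both at day 7.

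Wildtype micromasses give the same interval from libraries that share none with the comparison above. In wildtype 2153 of 13519 genes rose (15.9%) and 738 fell (5.46%). Of the genes that rose without Ezh2, 1504 also rose in wildtype, which is 82.2% of the Ezh2-deficient and 69.9% of the wildtype list. Of those that fell, 443 also fell in wildtype, 58.0% and 60.03% of the lists. No gene rose in Ezh2-deficient and fell in wildtype micromass, and 4 did the reverse. Across 13312 genes the log2 ratios of the genotypes had a Pearson correlation of 0.898 and a Spearman correlation of 0.867, given as a description over genes that share their libraries.

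The difference between the genotypes in the size of the step was taken as the difference of the log2 ratios with a 95% counting interval, and was not tested. Of 13787 genes with 1 CPM in any of the 4 libraries, the ratio was at least 2-fold higher in Ezh2-deficient micromass for 246 (1.78%) and at least 2-fold lower for 451 (3.27%). Of the 246, 97 had risen in Ezh2-deficient and 42 in wildtype micromass, while 65 and 114 had fallen. Of the 451, 84 had risen in Ezh2-deficient and 273 in wildtype micromass, while 106 and 15 had fallen. Most of the 451 were thus genes that rose in wildtype.

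**Figure D3:**
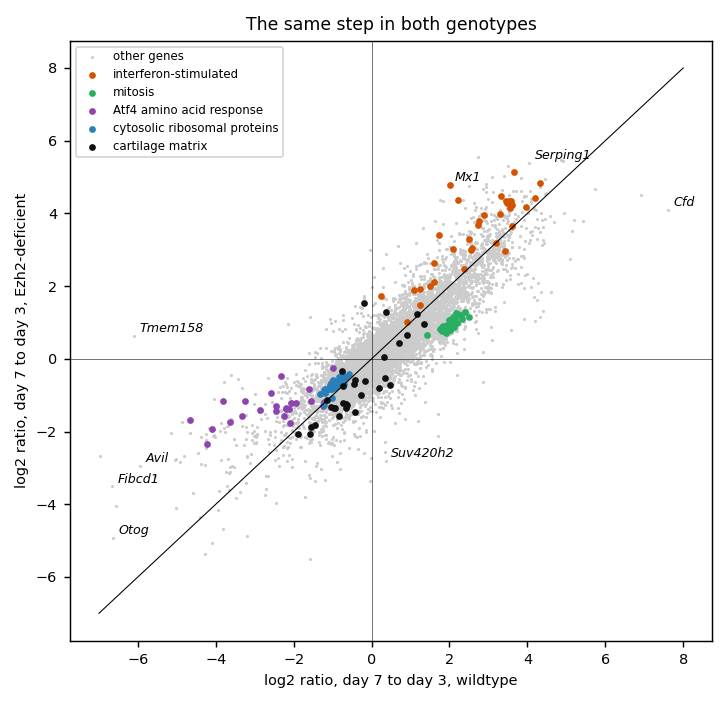
Log2 ratio of day 7 to day 3 in wildtype (horizontal axis) and in Ezh2-deficient micromass (vertical axis), 1 point per gene, with 5 lists in colour and the line of equal steps. The 35 mitosis genes all lie below the line, 33 of 34 interferon-stimulated genes above it, and 23 of 24 Atf4 response genes above it.

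The smaller cell cycle step was shared by the whole list. All 35 mitosis genes rose in wildtype, with a median of 2.06 against 0.98, each of the 35 ratios was below its wildtype ratio, and for 25 the difference was 2-fold or more. Mki67 went from 90.8 to 422 CPM in wildtype, so that Ezh2-deficient cells were higher at day 3 and lower at day 7. Summed over the list, levels were 909.5 and 1834 CPM without Ezh2 and 728 and 3052 CPM with it. Replication genes followed the same pattern: 26 of 36 rose in wildtype (median 1.24) and all 36 ratios were lower without Ezh2.

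The Atf4 list fell less without Ezh2. In wildtype 23 of 24 fell, with a median of -2.29 against -1.33, and for 12 genes the difference of the steps was 2-fold or more. Day 3 sums were close, 6069 CPM without and 6098 CPM with Ezh2, and day 7 sums were 2498 and 1184 CPM. Chac1 stood at 151 and 10.7 CPM in wildtype, a step difference of 2.65 (interval 2.48 to 2.82), and Fgf21 at 22.9 and 0.882 CPM, a difference of 2.97 (2.40 to 3.54). Asns had 377 and 51.6 CPM. The ribosomal protein genes had the same order, with 18 of 41 lower in wildtype (median -0.98) and 39 of 41 ratios nearer to 1 without Ezh2.

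Interferon-stimulated genes rose further without Ezh2. The wildtype median was 2.75 against 3.66, 33 of 34 ratios were higher in Ezh2-deficient micromass, and 9 of them by 2-fold or more. Mx1, an antiviral GTPase, had 0.324 and 9.59 CPM without Ezh2 and 0.453 and 1.91 CPM in wildtype, a difference of 2.78 (interval 1.64 to 3.92). Rsad2 had 2.21 and 10.3 CPM in wildtype, a difference of 2.15 (1.58 to 2.71). Summed over the list, levels were 275 and 1866 CPM without Ezh2 and 278 and 1108 CPM in wildtype. Of 21 macrophage marker ratios 11 were higher and 10 lower without Ezh2, with medians of 3.46 without Ezh2 and 3.28 in wildtype. Their sums were 179 and 2057 CPM without Ezh2 and 229 and 2136 CPM in wildtype. The part of macrophages in the interferon difference was not tested.

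**Figure D4:**
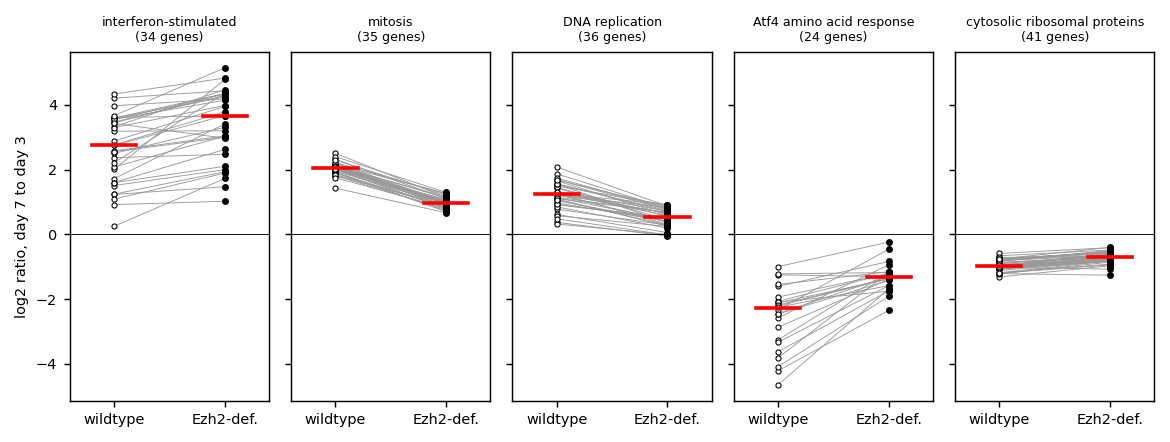
Log2 ratio of day 7 to day 3 in wildtype (open points) and Ezh2-deficient micromass (filled points) for the genes of 5 lists, with a line joining the 2 values of a gene and a red bar at the median. The median is higher without Ezh2 for interferon-stimulated genes (3.66 against 2.75) and lower for mitosis genes (0.98 against 2.06), and the Atf4 response list lies nearer to 0 (-1.33 against -2.29).

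In 25 of 30 cartilage matrix genes the ratio was lower without Ezh2 than in wildtype, where the median was -0.54 and 6 of 30 genes fell. Acan fell 4.19-fold against 2.99-fold in wildtype, and Matn1 2.75-fold against 1.34-fold, a step difference of -1.04 (interval -1.05 to -1.02). Of cholesterol genes none passed in wildtype (median -0.55), and 22 of 25 ratios were lower without Ezh2. Insig1 there had 237 and 147 CPM, so its day 3 level was the one that set the genotypes apart. Fat cell markers rose less without Ezh2, with a wildtype median of 3.04 and 6 of 12 differing by 2-fold or more, from a sum of 131 CPM at day 3 and 721 CPM at day 7 in wildtype. Adipoq had 1.57 and 32.4 CPM in wildtype, a difference of -2.51 (interval -2.94 to -2.08), and Car3, a carbonic anhydrase of fat and muscle, 14.2 and 35.3 CPM without Ezh2 and 0.514 and 11.4 CPM in wildtype. These genes were higher without Ezh2 on both days, and more so at day 3.

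Single genes differed far more. Tmem158, a membrane protein induced by Ras (chr9:123259057-123260789), had 397 and 614 CPM without Ezh2, but 659 and 9.64 CPM in wildtype, a step difference of 6.72 (interval 6.56 to 6.87). Avil, advillin, an actin-binding protein of sensory neurons, fell 7.72-fold without Ezh2, from 243 to 31.5 CPM, and from 269 to 4.32 CPM in wildtype. Corin, a protease that activates natriuretic peptide, was high in the wildtype day 3 library alone, at 14.6 CPM against 1.17 CPM at day 7 and 0.944 and 0.687 CPM without Ezh2. In the other direction Suv420h2, a methyltransferase for histone H4, had 110 and 15.7 CPM without Ezh2 and 16 and 20.7 CPM in wildtype, so that the Ezh2-deficient day 3 library was the one that stood apart. Bdnf, a nerve growth factor, had 3.56 and 6.51 CPM without Ezh2 and 0.635 and 5.49 CPM in wildtype.

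The day 14 library places the interval in a longer course. Of the genes that rose by day 7, 1473 (80.5%) were still at least 2-fold above day 3 at day 14, and of those that fell, 654 (85.6%) were still at least 2-fold below. Both shares reuse the day 3 library by which the genes were called, which favours high shares. The share over all genes was not computed, so they describe these genes only. From day 7 to day 14, a comparison that shares the day 7 library, 719 of 13550 genes rose (5.31%) and 790 fell (5.83%). Among the genes that had risen, 195 rose again and 237 fell back, and among those that had fallen, 170 fell again and 40 rose. Hypertrophy genes made their larger step only then, with 13 of 20 higher and none lower and a median of 2.42. Col10a1 had 441, 211 and 1812 CPM at days 3, 7 and 14, and Ibsp 56.2, 243 and 29884 CPM, so the dip of Col10a1 preceded its highest level. Ephx4 returned from 0.636 to 24.2 CPM.

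Interferon-stimulated and cell cycle genes had their highest sums at day 7. The interferon list summed to 275, 1866 and 1166 CPM at days 3, 7 and 14, with 9 of 34 lower and none higher at day 14 than at day 7, and Cxcl10 went from 19.7 to 2.92 CPM. The mitosis list summed to 909.5, 1834 and 794 CPM, with 32 of 35 lower at the last step. Macrophage markers went on, to a sum of 4064 CPM, with 9 of 21 higher. Cartilage matrix fell again, to 29875 CPM, with 14 of 30 lower, and Col1a1 rose again, to 62848 CPM. The Atf4 list stayed near its day 7 level, with 2 of 24 higher, 2 lower and a sum of 3106 CPM.

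**Figure D5:**
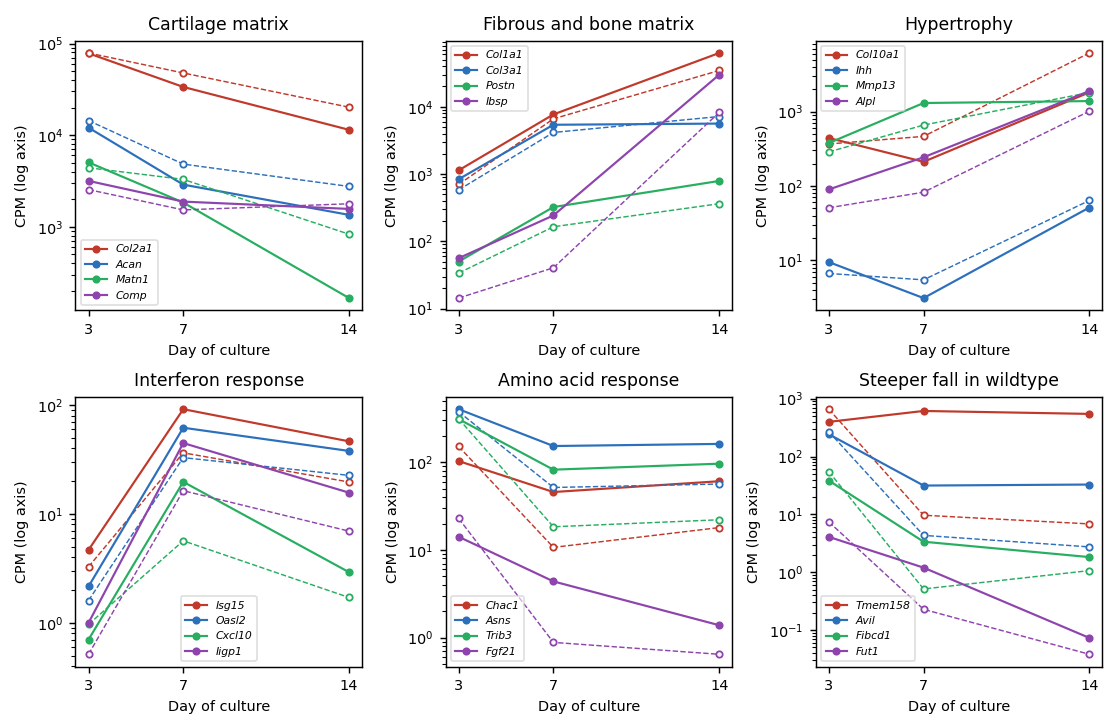
Levels of 24 genes in CPM (log axes) on each of the culture days 3, 7 and 14, with filled points and solid lines for Ezh2-deficient and open points and dashed lines for wildtype micromass, 1 library per point. Col2a1 and Acan fall over the days, Isg15 and Cxcl10 peak at day 7, Col10a1 dips at day 7 without Ezh2 only (441, 211 and 1812 CPM), and Tmem158 stays above 397 CPM at days 7 and 14 without Ezh2 while it drops in wildtype.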

How the data were processed

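RNA was measured by sequencing in 6 libraries, 1 per genotype and day. The authors deposited raw counts per gene for each library, whole numbers without normalization, together with RPKM values that the authors scaled by a coding length and a library total, per the file headers. Per the submitters' processing notes, CASAVA 1.9, TopHat 12.0.6, HTSeq and the build mm10 were used, with no role or order given. Strandedness and the annotation behind the counts are not stated by the sources at hand, and overlapping or antisense genes cannot be separated. Every deposited count was even, and 2 counts were taken as 1 fragment in all intervals. Table columns without a sample numbered 0.

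TMM factors over the 6 libraries came from edgeR 4.0.16 in R 4.3.3 (0.935 for Ezh2-deficient day 3, 1.09 for day 7), and the rest was computed with Python 3.11.15, pandas 2.3.3 and scipy 1.17.1. Ratios are of TMM-scaled CPM, with an exact 95% binomial interval on fragments. The difference of steps used a normal counting interval with 0.5 fragments added. Intervals and the floor of 3 fragments, 0.0809 CPM at day 3 and 0.0763 CPM at day 7, reflect counting error alone, because no molecular identifiers mark duplicate reads. RPKM values were used to rank genes by level per length and for their totals as an alternative scaling. Of 23358 entries, 9778 were below 1 CPM in both Ezh2-deficient libraries and were left out of the calls, and 69 shared a symbol with another entry. No test was made, with 1 library a side. The calculation was tested on simulated data.

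The interval, the 50 gene lists and the naming rule were chosen with earlier results of these data known. By that rule Ezh2 came first, then, among called genes with 5 CPM or more, the 12 largest ratios and the 10 largest changes in CPM in each direction, then up to 4 called members of each list, a fixed set of cartilage, bone and control genes, and the 8 largest step differences in each direction. Named outside the rule, after their values were seen, were Asns, Comp, Postn, Ezh1, Eed, Suz12, Nt5dc1, Hapln1, Matn3, Cdk1, Top2a, Mcm2, Ifit1, Oas1a, Rsad2, Atf4, Ddit3, Xist, Rn45s, Fabp4, Cd68, Csf1r, Art3, Sparc, B2m and Ptch1, and list members at 0. Promoter sequences are RefSeq's for GRCm38.p6, and those on chromosome 18 were not used. Alternatives were other scalings, minimum levels, prior counts and folds, and intervals on counts as deposited.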

Additional observations from a re-analysis of the deposited data

Results flagged for a closer look

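For 4 named genes the step from day 3 to day 7 went one way in Ezh2-deficient and the other way in wildtype micromass, with counting intervals that left out 1 and a change past the 2-fold rule in at least 1 of the genotypes. Matn3 and Xist also went opposite ways, at -0.52 and 0.35 and at -0.32 and 0.09, with neither genotype past the rule. With 1 library per genotype and day these differences were not tested. Col10a1, type X collagen, had a log2 ratio of -1.06 without Ezh2 and of 0.34 in wildtype. Cdkn1c, a cell cycle inhibitor of the growth plate, had -1.18 and 0.24. Suv420h2, which methylates histone H4, had -2.80 and 0.37, with the Ezh2-deficient day 3 library the high one of the 4 at 110 CPM. Tmem158 had 0.63 and -6.09, with the wildtype day 7 library the low one at 9.64 CPM.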

How the results depend on the processing

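No paired analysis was possible because each genotype and day had 1 library, and for the same reason no library could be left out in turn. Depth limits genes near 1 CPM, and 9778 entries lay below it. Alternatives for the Ezh2-deficient step were planned, and those for its difference from wildtype were chosen after seeing the data. With the totals behind the RPKM values 495 genes fell, against 764. With a minimum of 5 CPM 497 fell, and 145 and 247 genes had a step at least 2-fold higher or lower than wildtype, against 246 and 451; fewer genes were counted there. At 4-fold or more 776 rose and 164 fell, and 47 and 45 differed from wildtype. The median of the keratinocyte and epithelium list turned from 2.14 over 3 genes to -0.53 with no minimum level, which adds its members below 1 CPM. Lists with a median log2 ratio of at least 1 then numbered 11, against 16. Of 213 named calls, 13 were lost with total counts, 13 with the RPKM totals, 2 with TMM over the libraries of each step, 1 with RLE factors and 1 with upper-quartile factors, and none turned to the opposite call. Those lost with total counts included Atf4, Cdkn1c, Chac1, Col10a1, Col2a1, Creb3l2, Eef1a1, H19, Malat1, Rplp1, Sox6 and Tgfbi. The medians of 10 lists changed sign with total counts and of 9 with the RPKM totals, all of them lists with a median between -0.22 and -0.04.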

Other observations

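Genes with the largest upward ratios outside the interferon and complement lists belonged to several kinds. Slco4a1, a carrier of organic anions, went from 0.89 to 36.0 CPM in Ezh2-deficient micromass, 40.5-fold (interval 28.7 to 59.1), and from 1.39 to 16 CPM in wildtype. Mfap4, a protein of elastic microfibrils, went from 1.13 to 36.2 CPM and Irg1, the itaconate-making enzyme of activated macrophages, from 0.243 to 8.52 CPM. Fcrls, a gene of tissue macrophages, went from 0.917 to 25.1 CPM and on to 123 CPM at day 14. All were also higher at day 7 than at day 3 in wildtype.

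Among the 12 largest downward ratios named, Slc2a5, the fructose carrier, went from 35.8 to 3.84 CPM, Trpm5, a channel of taste cells, from 32.2 to 2.52 CPM, and Nos1, the neuronal nitric oxide synthase, from 11.9 to 1.09 CPM. Fibcd1, a chitin-binding receptor, went from 38.4 to 3.36 CPM without Ezh2 and from 54.7 to 0.512 CPM in wildtype, a step difference of 3.16 (interval 2.45 to 3.87). Egfl6, a matrix protein of the skin and of fat, rose from 1.83 to 42.2 CPM without Ezh2 and from 0.0907 CPM, or 3 fragments, to 14.6 CPM in wildtype, 161-fold with an interval of 54.6 to 781.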
